A study of Mus musculus with 9 samples.

Results

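The 43 genes described here encode regulators of DNA methylation and of chromatin, and were taken by gene symbol from the 50764 genes of the count table. They fall into 11 classes by what their proteins do: 5 genes of DNA methylation, 4 of DNA demethylation, 4 class I and 4 class IIa histone deacetylases, 3 other deacetylases, 4 histone acetyltransferases, 4 genes of Polycomb repressive complex 2, 3 histone methyltransferases of the KMT2 family, 5 histone demethylases, 4 BAF remodeler subunits and 3 CHD remodelers. The libraries came from adult male wild-type mice, 3 each from eyes given AAV-Olig3, AAV-Olig2 or AAV-GFP (AAV2 vectors injected into the vitreous). Every group, the GFP controls included, also had an optic nerve crush, and the labels give 14 days for both the virus and the crush. Olig3 and Olig2 are basic helix-loop-helix transcription factors, and GFP is the control cargo. CD90.2 beads enriched the cells, of which 10 to 20 with GFP signal were hand-picked for each library. The labels give neither the promoter that drives each cargo nor whether libraries came from separate animals. The p-values therefore measure the spread between libraries, which may in part be technical.

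Libraries held 5355691 to 6979851 counts. The delivered factor was seen in its own libraries: Olig3 had 172, 113 and 597 counts in Olig3 libraries, against 13, 0 and 40 in GFP libraries, and Olig2 had 114, 97 and 21 counts in Olig2 libraries, against 0 in each GFP library. The labelled cell type was only partly borne out. A list of 12 rod photoreceptor markers took 6.33 to 16.2% of the counts in Olig3 libraries and 8.25 to 14.7% in Olig2 libraries, against 4.96 to 7.67% in GFP libraries, and all 12 were detected in every library. The 14 ganglion cell markers took 0.0203 to 0.0362% in Olig3 libraries and 0.0255 to 0.0475% in Olig2 libraries, against 0.0976 to 0.219% in GFP libraries. Olig3 library 3 had counts for 6 of these 14 and none for the defining genes Rbpms, Slc17a6 and Thy1. Isl1, on this list and also on a list of bipolar cell markers, had the most counts of the 14 genes in that library. Its counts were 388, 240 and 647 in Olig3 libraries and 576, 306 and 342 in Olig2 libraries. In GFP libraries they were 239, 276 and 233, so Isl1 did not share the lower level of the list in factor libraries. These marker shares differ between the same groups as the values below, and their part in any difference was not tested. Fewer cells of a type and less RNA per cell cannot be told apart in such pools. Olig3 libraries 1 and 3 also had the fewest detected genes, 16188 and 14434, against 18184 to 21338 in the other libraries. Levels are given as CPM, the usual count relative to library total, here with TMM scaling factors (trimmed mean of M-values) applied to that total. Differences are given as log2 changes with the group given first on top.

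DNA methyltransferases place methyl groups on cytosines of CpG pairs, and TET enzymes oxidise them as the first step of their removal. Histone acetyltransferases and deacetylases add and remove acetyl groups, which loosen and tighten the contact of histones with DNA. Polycomb repressive complex 2 methylates histone H3 at lysine 27, a mark of silent genes, KMT2 enzymes methylate lysine 4 at promoters and enhancers, and demethylases of the KDM family remove such marks. BAF and CHD complexes use ATP to move nucleosomes. In neurons several of these complexes exchange subunits as cells leave the cell cycle, and deacetylases and TET enzymes have been studied in axon injury.

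The genes were expressed at moderate levels. Compared between genes per kilobase of exon, their levels had a median of 6.21 CPM per kb over the 42 genes that passed the expression filter, against 4.15 CPM per kb over all 15609 genes tested. Smarca4, the ATPase of BAF complexes also called BRG1, had the highest level, with a mean of 28.7 CPM per kb over the 9 libraries and a range of 22.9 to 35.5. The deacetylases Hdac1 and Hdac2 followed with 23.7 and 23.3 CPM per kb, then the Polycomb subunits Eed and Suz12 with 16.02 and 15.7. The ranges of Hdac1 (15.4 to 35.1) and Hdac2 (11.1 to 39.0) overlapped with that of Smarca4, so the order of these neighbours is not fixed by the libraries. At the low end stood Kdm6b with 1.58, Dnmt3b with 1.55, Tet1 with 1.25, Hdac4 with 1.19 and Uhrf1 with 0.456 CPM per kb. Uhrf1 alone did not pass the expression filter and was not tested. Libraries of a group differed less for these genes than for most: the median SD of log2 CPM within groups was 0.372 over the 42 genes, against 0.773 over all genes tested. Their exons are also longer, with a median of 7408.5 bases against 4039.5 bases over all genes tested.

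**Figure D1:**
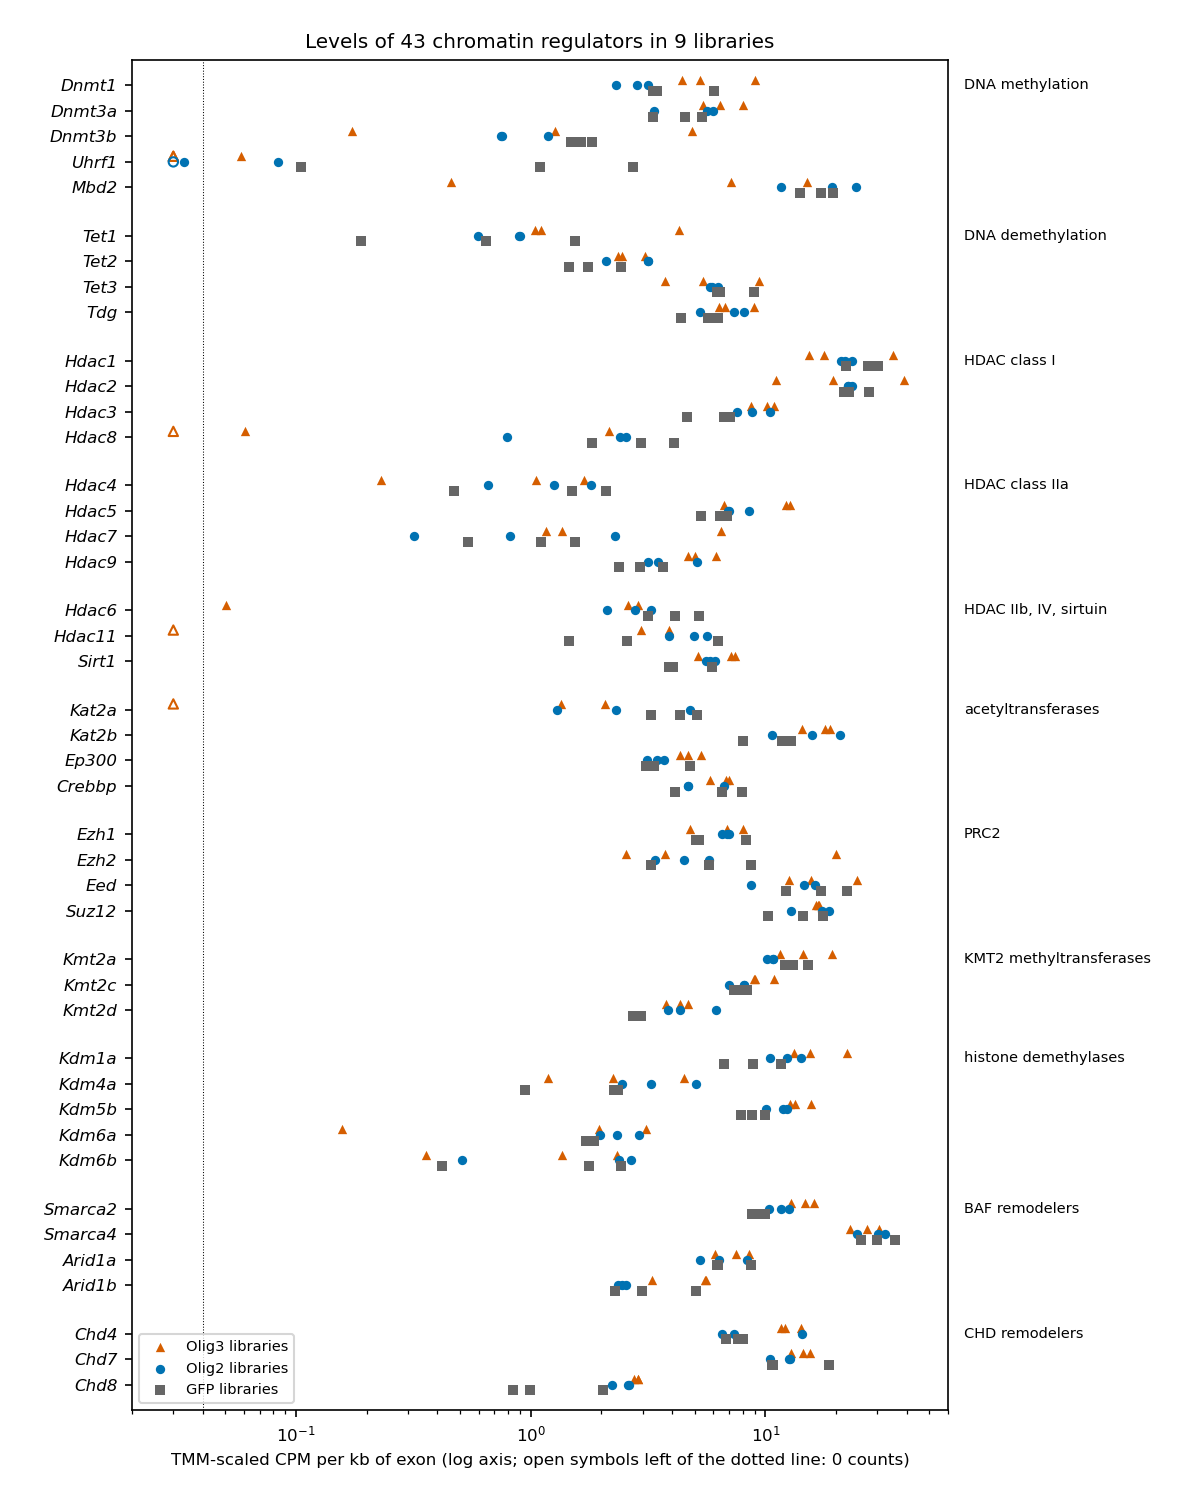
Level of each of the 43 genes in CPM per kilobase of exon (log axis), with genes ordered by class, a triangle, circle or square for each Olig3, Olig2 or GFP library, and open symbols for 0 counts. Smarca4, Hdac1 and Hdac2 stand at the high end with 28.7, 23.7 and 23.3 CPM per kb over all libraries, and Uhrf1 at the low end with 0.456.

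No gene of the 42 tested passed an adjusted p of 0.05 in edgeR's quasi-likelihood test in any comparison, and DESeq2 and limma-voom also called none. In edgeR, the share of all genes that passed was also small, 0.205% for Olig3 against GFP, 0.0513% for Olig2 against GFP, 0.0384% for Olig3 against Olig2 and 0.122% for both factors together against GFP. Over all 15609 genes, DESeq2 called more, with 493, 86, 82 and 324 genes in these comparisons, and limma-voom called 78, 6, 1 and 97. The edgeR count for Olig3 against GFP, 32 genes, ranged from 0 to 505 genes when 1 library was left out. At an unadjusted p below 0.05, Olig3 against GFP had 8 genes, Chd4, Chd8, Hdac5, Hdac9, Kdm1a, Kdm5b, Kmt2d and Smarca2, all higher in Olig3 libraries, where 5.76% of all genes met that rule in that direction. Olig2 against GFP had 2, Chd8 and Kmt2d, both higher in Olig2 libraries, with a background of 2.61%. Olig3 against Olig2 had 3, Arid1b, Dnmt1 and Kmt2a, all higher in Olig3 libraries, with a background of 2.07%. Both factors together against GFP had 7, all higher in the factor libraries (Chd8, Hdac9, Kat2b, Kdm1a, Kdm5b, Kmt2d and Smarca2), with a background of 4.23%. In this fit none of the 42 was lower at that threshold in any of the 4 comparisons, where 6.37, 2.08, 3.05 and 5.14% of all genes were. By limma-voom there were 13 genes for Olig3 against GFP, 9 of them higher, 6 for Olig3 against Olig2, 3 of them higher, and 11 for both factors against GFP, 7 of them higher. With library totals and no scaling factors edgeR gave 0 genes for Olig3 against GFP, 1 for Olig2 against GFP (lower in Olig2 libraries), 3 for Olig3 against Olig2 (all higher in Olig3 libraries) and 0 for both factors against GFP. The comparisons against GFP share the GFP libraries, and both comparisons with Olig3 on top share the Olig3 libraries, so their counts are not independent of each other. Leaving out 1 library at a time gave 6 to 12, 1 to 3, 1 to 4 and 4 to 10 genes in these 4 comparisons.

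The median log2 change of the 42 genes was 0.28 for Olig3 against GFP, with 29 genes higher and 13 lower in Olig3 libraries, where all genes had a median of -0.18. For Olig2 against GFP it was 0.11, with 22 genes higher and 20 lower in Olig2 libraries, beside 0.06 for all genes. For Olig3 against Olig2 it was 0.16, with 26 genes higher and 16 lower in Olig3 libraries, beside -0.23 for all genes. These medians, and those of classes below, use differences between group means of log2 CPM, which for genes near 0 counts in a library can lie far from the fitted log2 change. They also depend on how libraries are scaled. Olig3 library 2 and Olig2 libraries 2 and 3, which are rich in the nuclear RNA Malat1 (8.54, 11.7 and 6.15% of counts, against 2.65 to 4.14% in the others), had TMM factors of 0.750 to 0.826, against 1.06 to 1.19 in the others. With library totals alone the medians of the 42 genes were 0.03 for Olig3 against GFP, -0.26 for Olig2 against GFP and 0.29 for Olig3 against Olig2. The medians of all genes were then -0.42, -0.31 and -0.10. They also depend on the genes and libraries used. With only genes at 10 CPM or more in at least 3 libraries, they were -0.07, 0.03 and -0.10 in the same order. Without the 2 libraries with the fewest detected genes, which leaves 1 Olig3 library, they were 0.05, 0.06 and 0.006. The 42 genes also differ from all genes in median level and exon length, so all genes are not a set matched to them.

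Groups whose 3 libraries all lie above the 3 of the other group give a second count. Above GFP stood all Olig3 libraries for 12 genes (background 7.18%) and all Olig2 libraries for 8 (background 8.47%). Below GFP stood all Olig3 libraries for 2 genes, Hdac6 and Kat2a (background 10.0%). All Olig2 libraries did so for 3, Dnmt1, Dnmt3b and Kmt2a (background 8.35%). All Olig3 libraries stood above all Olig2 libraries for 10 genes (background 4.41%) and below them for 1, Hdac11 (background 8.69%). In all 6 factor libraries Chd8, Hdac3, Kdm5b, Kmt2d and Smarca2 were above every GFP library, 5 of 42 genes with a background of 2.93%. None of the 42 was below GFP in all 6, with a background of 4.26%. These counts depend on the scaling. With library totals and no scaling factors, no gene of the 42 was above GFP in all 6 factor libraries (background 0.692%), and Hdac6 and Tet3 were below GFP in all 6 (background 8.20%). All Olig3 libraries were then above GFP for 0 genes and below it for 4 (backgrounds 2.09 and 16.3%). All Olig2 libraries were above GFP for 1, Kmt2d, and below it for 10 (backgrounds 2.74 and 18.0%). Olig3 libraries were all above Olig2 libraries for 3 genes and below them for 0 (backgrounds 3.05 and 8.39%).

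**Figure D2:**
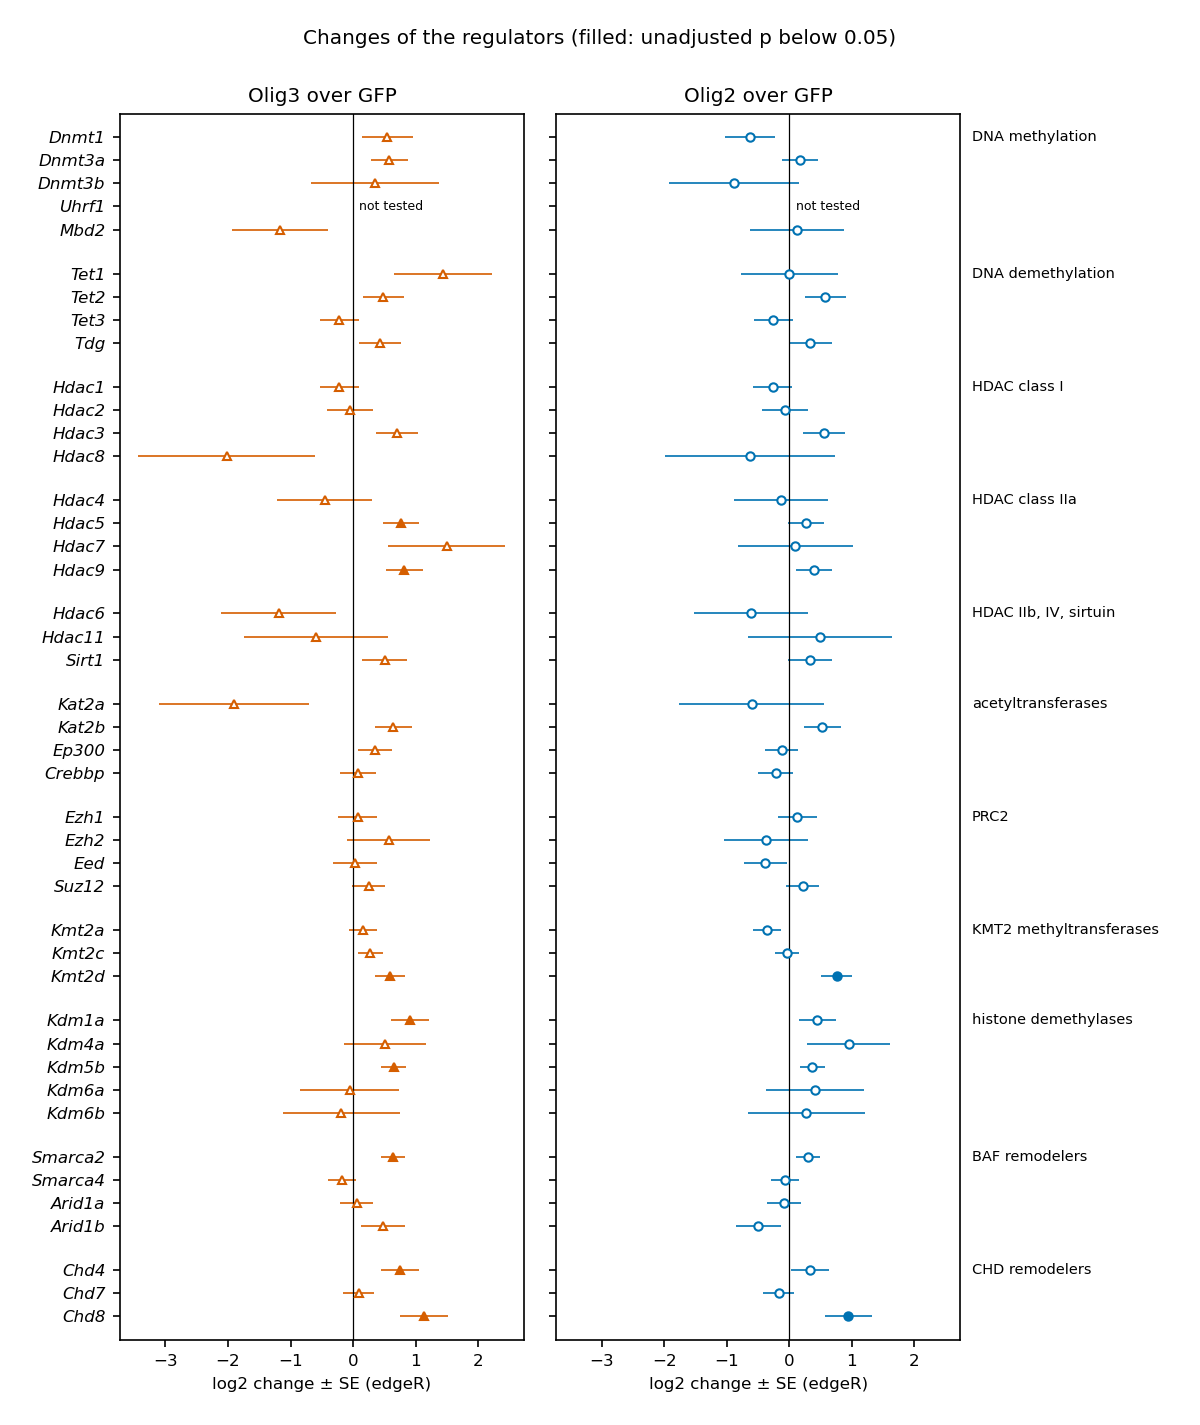
Log2 change of each gene tested, by class, for Olig3 against GFP (left) and Olig2 against GFP (right), with bars of 1 SE and filled symbols for an unadjusted p below 0.05. No gene passed an adjusted p of 0.05, and the 42 genes had medians of 0.28 and 0.11 beside -0.18 and 0.06 for all genes.

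Of the genes of DNA methylation, none passed the test, and their class median was -0.02 for Olig3 against GFP and -0.25 for Olig2 against GFP. Dnmt1, the methyltransferase that copies methylation after replication (chr9:20907209-20959888, minus strand, GRCm38), had 38.9, 32.6 and 66.6 CPM in the Olig3 libraries and 17.0, 23.3 and 20.9 CPM in the Olig2 libraries, against 44.5, 24.4 and 25.6 CPM in the GFP libraries. Every Olig3 library was above every Olig2 library, and the GFP libraries overlapped with the Olig3 libraries. Every Olig2 library was below every GFP library, with and without scaling factors (backgrounds 8.35 and 18.0%). Dnmt1 had the smallest p of the 42 genes between the factors, with a log2 change of 1.18 (SE 0.41, edgeR adjusted p = 0.918) for Olig3 against Olig2. Dnmt1 was one of 3 genes, with Dnmt3a and Tet1, that had every Olig3 library above every Olig2 library without scaling factors, where the background was 3.05%.

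Uhrf1, which brings Dnmt1 to newly copied DNA (chr17:56303321-56323486, plus strand), had 0, 1 and 0 counts in the Olig3 libraries and 1, 0 and 2 counts in the Olig2 libraries, against 3, 92 and 35 counts in the GFP libraries. Nearly all of its counts were in GFP libraries 2 and 3, and GFP library 1 was close to the factor libraries. From counts pooled over each group, the ratio of Olig3 to GFP was 0.00963 (95% counting interval 0.000242 to 0.0546) and that of Olig2 to GFP was 0.0303 (0.00617 to 0.0905), intervals that cover counting error and not the spread between libraries. A list of cell cycle markers took 0.0159 to 0.0272% of the counts in Olig3 libraries and 0.0152 to 0.0256% in Olig2 libraries, against 0.0198 to 0.120% in GFP libraries. The proliferation gene Mki67 had 0, 9 and 0 counts in the Olig3 libraries and 0, 5 and 8 counts in the Olig2 libraries. In the GFP libraries it had 2, 75 and 753 counts, with its peak in library 3, while that of Uhrf1 was in library 2. Most genes of the list had their highest GFP count in library 3, as Mki67 did. Rrm2, also on the list, peaked in library 2 as Uhrf1 did, with 2, 372 and 143 counts in the GFP libraries. It had 1, 2 and 0 counts in the Olig3 libraries and 7, 14 and 3 counts in the Olig2 libraries. The genes of the list were not all low in the factor libraries. Pcna had 1067, 458 and 767 counts in the Olig3 libraries and 1044, 447 and 844 counts in the Olig2 libraries. Its GFP libraries, with 700, 974 and 1361 counts, overlapped with these. The part of cell cycle transcripts in the Uhrf1 values was not tested.

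The de novo methyltransferases differed in spread. Dnmt3a, the main such enzyme of mature neurons, had 90.1, 107 and 133 CPM in the Olig3 libraries and 55.5, 99.7 and 93.9 CPM in the Olig2 libraries, against 55.4, 89.5 and 75.8 CPM in the GFP libraries, and every Olig3 library was above every GFP library. Its log2 change was 0.58 (SE 0.29, edgeR adjusted p = 0.460) for Olig3 against GFP. Dnmt3b, its counterpart of early development, had 6, 26 and 170 counts in the Olig3 libraries and 27, 16 and 34 counts in the Olig2 libraries, against 51, 74 and 63 counts in the GFP libraries, with Olig3 library 3 far above the other Olig3 libraries. Mbd2, a reader that binds methylated DNA, had 10, 92 and 331 counts in the Olig3 libraries and 264, 329 and 347 counts in the Olig2 libraries, against 303, 496 and 415 counts in the GFP libraries, and Olig3 library 1 was the lowest by far.

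The genes of active demethylation had class medians of 0.46 for Olig3 against GFP and 0.37 for Olig2 against GFP, and none passed the test. Tet2, which oxidises methylcytosine and lacks the CXXC DNA-binding domain of its relatives, had 41.2, 39.8 and 51.8 CPM in the Olig3 libraries and 53.3, 35.4 and 53.2 CPM in the Olig2 libraries, against 24.6, 40.9 and 29.5 CPM in the GFP libraries. The groups overlapped at GFP library 2, and the log2 change was 0.58 (SE 0.33, edgeR adjusted p = 1.00) for Olig2 against GFP. Tet1, whose protein binds CpG-rich promoters, had 17.2, 16.2 and 66.4 CPM in the Olig3 libraries and 9.23, 13.8 and 13.9 CPM in the Olig2 libraries, against 9.98, 23.9 and 2.93 CPM in the GFP libraries. All Olig3 libraries were above all Olig2 libraries, with a log2 change of 1.44 (SE 0.78, edgeR adjusted p = 0.933) for Olig3 against Olig2. Olig3 library 3 stood far above the other Olig3 libraries, and without it the log2 change was 0.44. Tet3 had 62.4, 156 and 90.4 CPM in the Olig3 libraries and 105, 96.6 and 99.3 CPM in the Olig2 libraries, against 104, 107 and 149 CPM in the GFP libraries. The Tet3 groups overlapped, and its log2 changes were -0.22 (SE 0.31, edgeR adjusted p = 0.816) for Olig3 and -0.26 (SE 0.31, edgeR adjusted p = 1.00) for Olig2 against GFP. Tdg, the glycosylase that cuts out the oxidised bases, had 47.9, 36.1 and 34.2 CPM in the Olig3 libraries and 39.3, 28.2 and 43.6 CPM in the Olig2 libraries, against 23.5, 33.9 and 30.5 CPM in the GFP libraries. Olig3 libraries were all above GFP libraries, with a log2 change of 0.43 (SE 0.34, edgeR adjusted p = 0.662) for Olig3 against GFP.

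Class I deacetylases, the nuclear enzymes of corepressor complexes, had medians of -0.27 for Olig3 and -0.16 for Olig2 against GFP. Hdac3, the catalytic subunit of the NCoR and SMRT corepressors (chr18:37935844-37955016, minus strand), had 35.2, 41.1 and 44.0 CPM in the Olig3 libraries and 30.7, 35.6 and 42.5 CPM in the Olig2 libraries, against 28.6, 18.7 and 26.9 CPM in the GFP libraries. All 6 factor libraries were above all GFP libraries on the scaled levels. The means were 40.1 ± 4.45 CPM in Olig3 libraries and 36.3 ± 5.94 CPM in Olig2 libraries, against 24.7 ± 5.30 CPM in GFP libraries (SD, n = 3 each). The log2 changes of Hdac3 were 0.70 (SE 0.34, edgeR adjusted p = 0.445) for Olig3 and 0.55 (SE 0.34, edgeR adjusted p = 1.00) for Olig2 against GFP. Of the abundant pair, Hdac1 had log2 changes of -0.22 (SE 0.31) and -0.27 (SE 0.31) for Olig3 and Olig2 against GFP. Hdac2 had -0.05 (SE 0.36) and -0.07 (SE 0.36). Hdac8, an X-linked class I enzyme (chrX:102284639-102505359, minus strand), had 2, 42 and 0 counts in the Olig3 libraries and 27, 49 and 69 counts in the Olig2 libraries, against 132, 70 and 107 counts in the GFP libraries. Olig3 libraries 1 and 3 were near 0 while Olig3 library 2 was as high as the Olig2 libraries, and the log2 change was -2.02 (SE 1.42, edgeR adjusted p = 0.613) for Olig3 against GFP. Without Olig3 library 2 it was -6.43, a fitted value that depends on the prior count, with an edgeR adjusted p of 0.0404, the one case among the fits run in which a gene of the 42 passed the threshold, and it then rests on Olig3 libraries 1 and 3, those with the fewest detected genes. That fit called 505 of 16926 genes, or 2.98% of all genes, so that 1 call among the 43 genes it tested is near the background. Over all fits run, the adjusted p of Hdac8 ranged from 0.0404 to 1.00.

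Class IIa deacetylases shuttle between nucleus and cytoplasm, and Hdac5 leaves the nucleus after axon injury in sensory neurons. Their median was 0.77 for Olig3 and 0.13 for Olig2 against GFP. Hdac9 had 90.7, 68.5 and 73.2 CPM in the Olig3 libraries and 75.0, 46.5 and 51.1 CPM in the Olig2 libraries, against 42.8, 54.0 and 34.9 CPM in the GFP libraries. Every Olig3 library was above every GFP library, and the log2 changes were 0.82 (SE 0.29, edgeR adjusted p = 0.304) for Olig3 and 0.39 (SE 0.29, edgeR adjusted p = 1.00) for Olig2 against GFP. Hdac5 had 107, 58.8 and 111 CPM in the Olig3 libraries and 61.5, 74.5 and 60.7 CPM in the Olig2 libraries, against 60.3, 46.9 and 56.4 CPM in the GFP libraries, so that 2 Olig3 libraries were high and the Malat1-rich one was within the GFP range. Its log2 change was 0.76 (SE 0.28, edgeR adjusted p = 0.324) for Olig3 against GFP, and its change of 0.50 (SE 0.28, edgeR adjusted p = 0.933) for Olig3 against Olig2 took the opposite sign, -0.15, without Olig3 libraries 1 and 3, which leaves 1 Olig3 library. Hdac7 had 43.7, 9.21 and 7.89 CPM in the Olig3 libraries and 5.54, 15.4 and 2.14 CPM in the Olig2 libraries, against 7.45, 3.66 and 10.4 CPM in the GFP libraries. Hdac4 had 114, 107 and 25 counts in the Olig3 libraries and 73, 120 and 111 counts in the Olig2 libraries, against 159, 59 and 248 counts in the GFP libraries, and the groups of both genes overlapped. Of the exons of Hdac4, 22.4% overlap with Gm26720 on the opposite strand, for which no counts were given.

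The cytoplasmic tubulin deacetylase Hdac6, the class IV enzyme Hdac11 and the sirtuin Sirt1 had a median of -1.57 for Olig3 and 0.35 for Olig2 against GFP. With 3 genes, the Olig3 median is the value of Hdac11 alone. The fitted log2 change of Hdac11 was -0.59 (SE 1.16, edgeR adjusted p = 0.877) for Olig3 against GFP. Hdac6 had 2, 67 and 103 counts in the Olig3 libraries and 114, 52 and 106 counts in the Olig2 libraries, against 124, 240 and 180 counts in the GFP libraries. Its Olig3 levels were below all GFP levels, and its log2 change was -1.19 (SE 0.92, edgeR adjusted p = 0.652) for Olig3 against GFP. Hdac11 had 0, 60 and 78 counts in the Olig3 libraries and 135, 91 and 84 counts in the Olig2 libraries, against 162, 78 and 42 counts in the GFP libraries. Both values of Olig3 library 1 were at or near 0, and 25.5% of all genes tested had fewer than 10 counts in that library, against 8.64 to 14.1% in the libraries other than Olig3 libraries 1 and 3. Of the exons of Hdac11, 15.4% overlap with Gm44002 on the opposite strand, which had 0 to 85 counts. Sirt1 had 27.4, 39.6 and 38.0 CPM in the Olig3 libraries and 32.7, 30.9 and 29.6 CPM in the Olig2 libraries, against 31.6, 21.6 and 20.8 CPM in the GFP libraries. The Sirt1 groups overlapped, and its log2 changes were 0.50 (SE 0.36, edgeR adjusted p = 0.617) for Olig3 and 0.33 (SE 0.36, edgeR adjusted p = 1.00) for Olig2 against GFP.

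The 4 acetyltransferases had class medians of 0.25 for Olig3 and -0.14 for Olig2 against GFP. Kat2a (GCN5) and Kat2b (PCAF) are alternative catalytic subunits of the SAGA and ATAC coactivator complexes, and Kat2b acetylates histones at regeneration genes of injured sensory neurons. Kat2b (chr17:53566861-53672720, plus strand) had 91.3, 69.7 and 87.6 CPM in the Olig3 libraries and 101, 51.7 and 76.6 CPM in the Olig2 libraries, against 62.6, 57.5 and 38.9 CPM in the GFP libraries. Every Olig3 library was above every GFP library, and the log2 changes were 0.65 (SE 0.30, edgeR adjusted p = 0.424) for Olig3 and 0.53 (SE 0.30, edgeR adjusted p = 1.00) for Olig2 against GFP. Kat2a (chr11:100704746-100712465, minus strand) had 32, 29 and 0 counts in the Olig3 libraries and 117, 19 and 45 counts in the Olig2 libraries, against 120, 90 and 113 counts in the GFP libraries. Every Olig3 library was below every GFP library, 1 Olig3 library had no counts, and the log2 changes were -1.90 (SE 1.20, edgeR adjusted p = 0.570) for Olig3 and -0.60 (SE 1.16, edgeR adjusted p = 1.00) for Olig2 against GFP. The ratio of the pair within a library, in counts per kilobase, does not depend on scaling. Kat2a over Kat2b was 0.0720, 0.145 and 0 in the Olig3 libraries and 0.230, 0.122 and 0.147 in the Olig2 libraries, against 0.400, 0.277 and 0.541 in the GFP libraries. Each of the 6 factor libraries was below all GFP libraries. The means were 0.0723 ± 0.0724 in Olig3 libraries and 0.166 ± 0.0565 in Olig2 libraries, against 0.406 ± 0.132 in GFP libraries (SD, n = 3 each), with no test run on the ratios. For this and the other ratios below, no share of separated groups over other gene pairs was counted. In the factor libraries this ratio rests on 0 to 117 counts of Kat2a. The coactivators Ep300 and Crebbp, which acetylate enhancer histones, gave ratios with no such order: Ep300 over Crebbp was 0.780, 0.805 and 0.618 in the Olig3 libraries and 0.791, 0.472 and 0.738 in the Olig2 libraries, against 0.513, 1.16 and 0.389 in the GFP libraries. Ep300 itself had 75.6, 66.7 and 61.8 CPM in the Olig3 libraries and 52.8, 44.9 and 49.3 CPM in the Olig2 libraries, against 47.7, 68.1 and 44.1 CPM in the GFP libraries. Olig3 libraries were all above Olig2 libraries, and the log2 change of Ep300 was 0.47 (SE 0.27, edgeR adjusted p = 0.933) for Olig3 against Olig2.

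In Polycomb repressive complex 2, the subunits Eed and Suz12 are needed for its activity. Eed had log2 changes of 0.03 (SE 0.35) and -0.38 (SE 0.35) for Olig3 and Olig2 against GFP. Suz12 had 0.25 (SE 0.26) and 0.22 (SE 0.26). The catalytic subunits are Ezh2, typical of dividing cells, and Ezh1, typical of resting cells. Ezh2 had 17.0, 24.9 and 133 CPM in the Olig3 libraries and 38.5, 22.5 and 30.2 CPM in the Olig2 libraries, against 21.8, 38.4 and 58.0 CPM in the GFP libraries. Olig3 library 3 was the highest of the 9 and far above the other Olig3 libraries, and the GFP libraries also spread widely. Ezh1 over Ezh2 was 1.88, 2.15 and 0.343 in the Olig3 libraries and 1.21, 1.94 and 1.52 in the Olig2 libraries, against 1.60, 1.44 and 0.584 in the GFP libraries, and the groups overlapped. The class medians were 0.08 and -0.06 for Olig3 and Olig2 against GFP.

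The KMT2 methyltransferases of H3 lysine 4 had class medians of 0.27 for Olig3 and -0.03 for Olig2 against GFP. Kmt2d, which acts at enhancers (chr15:98831669-98871204, minus strand), had 75.4, 93.1 and 85.9 CPM in the Olig3 libraries and 76.6, 123 and 86.1 CPM in the Olig2 libraries, against 55.7, 54.3 and 58.9 CPM in the GFP libraries. On the scaled levels each factor library was above the GFP libraries, which lay close together. The means were 84.8 ± 8.88 CPM in Olig3 libraries and 95.2 ± 24.5 CPM in Olig2 libraries, against 56.3 ± 2.34 CPM in GFP libraries (SD, n = 3 each), so that the Olig3 mean was 1.51-fold and the Olig2 mean 1.69-fold the GFP mean. The log2 changes were 0.59 (SE 0.25, edgeR adjusted p = 0.365) for Olig3 and 0.76 (SE 0.25, edgeR adjusted p = 0.712) for Olig2 against GFP. Kmt2d had the smallest p of the 42 genes for Olig2 against GFP and was the only one of them whose Olig2 libraries all stayed above the GFP libraries without scaling factors, where the background was 2.74%. Kmt2a (MLL1), a methyltransferase of promoters, had 319.9, 242 and 192 CPM in the Olig3 libraries and 179, 169 and 179 CPM in the Olig2 libraries, against 202, 253 and 218 CPM in the GFP libraries. Its Olig2 libraries were all below the Olig3 and the GFP libraries, and its log2 change was 0.52 (SE 0.22, edgeR adjusted p = 0.933) for Olig3 against Olig2. Kmt2c, the close relative of Kmt2d, had 221, 183 and 181 CPM in the Olig3 libraries and 165, 142 and 164 CPM in the Olig2 libraries, against 170.0, 163 and 149.8 CPM in the GFP libraries. It had the smallest spread within groups of the 42 genes, with every Olig3 library above every Olig2 and every GFP library. Its log2 changes were 0.28 (SE 0.19, edgeR adjusted p = 0.613) for Olig3 against GFP and 0.31 (SE 0.19, edgeR adjusted p = 0.934) for Olig3 against Olig2.

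The 5 histone demethylases had a median of 0.40 for Olig3 against GFP and of 0.39 for Olig2 against GFP, where all 5 had positive values and none passed the test. Kdm5b, which removes H3 lysine 4 methylation (chr1:134560171-134635285, plus strand), had 258, 222 and 210.3 CPM in the Olig3 libraries and 167, 197 and 205 CPM in the Olig2 libraries, against 130.1, 166 and 145 CPM in the GFP libraries. All 6 factor libraries were above all GFP libraries on the scaled levels, narrowly for Olig2 library 1. The means were 230.0 ± 24.8 CPM in Olig3 libraries and 189.8 ± 20.5 CPM in Olig2 libraries, against 147 ± 17.8 CPM in GFP libraries (SD, n = 3 each). The log2 changes of Kdm5b were 0.65 (SE 0.20, edgeR adjusted p = 0.260) for Olig3 and 0.37 (SE 0.20, edgeR adjusted p = 1.00) for Olig2 against GFP, and that for Olig2 was -0.01 with library totals alone. Kdm1a (LSD1), a demethylase of the CoREST corepressor that acts on lysine 4, had 80.4, 68.7 and 115 CPM in the Olig3 libraries and 73.7, 64.1 and 54.3 CPM in the Olig2 libraries, against 60.2, 45.9 and 34.5 CPM in the GFP libraries. Every Olig3 library was above every GFP library, and the log2 changes were 0.91 (SE 0.30, edgeR adjusted p = 0.268) for Olig3 and 0.45 (SE 0.30, edgeR adjusted p = 1.00) for Olig2 against GFP. The lysine 27 demethylase Kdm6a, on the X chromosome, had 9, 66 and 178 counts in the Olig3 libraries and 171, 70 and 109 counts in the Olig2 libraries, against 97, 121 and 117 counts in the GFP libraries, with Olig3 library 1 far below the others. Its relative Kdm6b had log2 changes of -0.19 (SE 0.94, edgeR adjusted p = 0.957) for Olig3 and 0.27 (SE 0.94, edgeR adjusted p = 1.00) for Olig2 against GFP, and the groups overlapped. Kdm4a, which acts on lysines 9 and 36, had 26.0, 12.9 and 6.86 CPM in the Olig3 libraries and 14.2, 29.2 and 18.8 CPM in the Olig2 libraries, against 13.6, 13.1 and 5.46 CPM in the GFP libraries. Olig2 libraries were all above GFP libraries, and the log2 changes of Kdm4a were 0.51 (SE 0.66, edgeR adjusted p = 0.801) for Olig3 and 0.95 (SE 0.66, edgeR adjusted p = 1.00) for Olig2 against GFP.

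**Figure D3:**
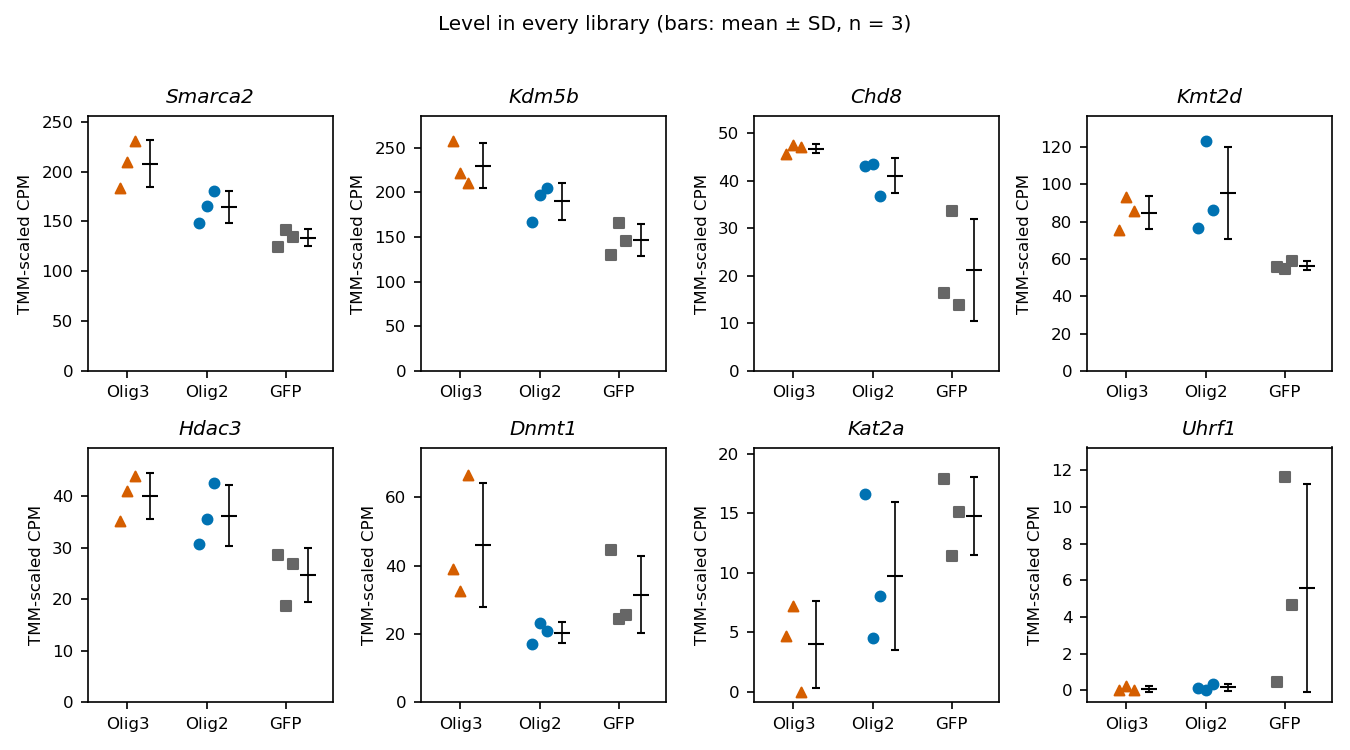
TMM-scaled level in CPM of 8 genes in each library, grouped as Olig3, Olig2 and GFP, with the mean and SD of 3 libraries beside the points. Smarca2, Kdm5b, Chd8, Kmt2d and Hdac3 had every factor library above every GFP library, Dnmt1 had every Olig3 library above every Olig2 library, and Uhrf1 had counts above 3 only in GFP libraries 2 and 3.

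BAF complexes carry 1 of 2 ATPases, Smarca4 (BRG1) or Smarca2 (BRM), and 1 ARID subunit such as Arid1a or Arid1b. The 4 genes had medians of 0.29 for Olig3 and -0.08 for Olig2 against GFP. Smarca2 (chr19:26605050-26778322, plus strand) had 184, 210.1 and 230.4 CPM in the Olig3 libraries and 148, 166 and 181 CPM in the Olig2 libraries, against 125, 142 and 135 CPM in the GFP libraries. All 6 factor libraries were above all GFP libraries on the scaled levels, and every Olig3 library was above every Olig2 library. The means were 208 ± 23.5 CPM in Olig3 libraries and 165 ± 16.2 CPM in Olig2 libraries, against 134 ± 8.66 CPM in GFP libraries (SD, n = 3 each). Smarca2 had the smallest p of the 42 genes for Olig3 against GFP, with a log2 change of 0.64 (SE 0.20, edgeR adjusted p = 0.255), and its change for Olig2 against GFP was 0.30 (SE 0.20, edgeR adjusted p = 1.00), which was -0.08 with library totals alone. Smarca4 (chr9:21616169-21704230, plus strand) had 198, 175 and 148 CPM in the Olig3 libraries and 159, 195 and 209.5 CPM in the Olig2 libraries, against 194, 229.9 and 166 CPM in the GFP libraries. These groups overlapped, with log2 changes of -0.18 (SE 0.22, edgeR adjusted p = 0.792) for Olig3 and -0.07 (SE 0.22, edgeR adjusted p = 1.00) for Olig2 against GFP. Within libraries, and so apart from scaling, Smarca2 over Smarca4 in counts per kilobase was 0.421, 0.545 and 0.705 in the Olig3 libraries and 0.423, 0.386 and 0.391 in the Olig2 libraries, against 0.292, 0.280 and 0.369 in the GFP libraries. Each factor library was again above every GFP library, and Olig3 libraries 2 and 3 were the highest. The means were 0.557 ± 0.142 in Olig3 libraries and 0.400 ± 0.0199 in Olig2 libraries, against 0.314 ± 0.0482 in GFP libraries (SD, n = 3 each). Arid1b had 69.4, 41.3 and 70.2 CPM in the Olig3 libraries and 30.8, 32.0 and 29.6 CPM in the Olig2 libraries, against 28.9, 37.4 and 63.8 CPM in the GFP libraries. Olig3 libraries were all above Olig2 libraries, and the log2 change of Arid1b was 0.97 (SE 0.36, edgeR adjusted p = 0.921) for Olig3 against Olig2. Arid1a over Arid1b was 1.54, 2.28 and 1.09 in the Olig3 libraries and 2.59, 2.07 and 3.57 in the Olig2 libraries, against 2.74, 2.09 and 1.71 in the GFP libraries, and the groups overlapped.

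The promoters of Smarca2, Smarca4, Kat2a and Kat2b are shown because these 2 pairs had ratios that separated both factor groups from GFP, and because the factors delivered bind E-boxes. Each is the 250 bases before a RefSeq transcription start of GRCm38.p6, written along the gene, with every match to CANNTG in capitals (the motif is its own reverse complement, so that 1 search covers both strands). The windows are chr19:26604910-26605159, plus strand for Smarca2, chr9:21615919-21616168, plus strand for Smarca4, chr11:100712468-100712717, minus strand for Kat2a, and chr17:53566721-53566970, plus strand and chr17:53583876-53584125, plus strand for the 2 starts of Kat2b.
Smarca2: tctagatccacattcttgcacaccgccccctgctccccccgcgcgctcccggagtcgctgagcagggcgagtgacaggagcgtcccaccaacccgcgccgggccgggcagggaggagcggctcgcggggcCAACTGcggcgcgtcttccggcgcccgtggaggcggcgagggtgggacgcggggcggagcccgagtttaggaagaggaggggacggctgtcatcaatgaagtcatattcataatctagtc
Smarca4: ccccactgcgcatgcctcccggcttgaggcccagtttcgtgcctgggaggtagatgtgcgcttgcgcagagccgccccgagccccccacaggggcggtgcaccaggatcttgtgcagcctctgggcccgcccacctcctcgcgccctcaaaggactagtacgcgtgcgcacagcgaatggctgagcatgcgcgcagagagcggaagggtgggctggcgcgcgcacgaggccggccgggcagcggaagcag
Kat2a: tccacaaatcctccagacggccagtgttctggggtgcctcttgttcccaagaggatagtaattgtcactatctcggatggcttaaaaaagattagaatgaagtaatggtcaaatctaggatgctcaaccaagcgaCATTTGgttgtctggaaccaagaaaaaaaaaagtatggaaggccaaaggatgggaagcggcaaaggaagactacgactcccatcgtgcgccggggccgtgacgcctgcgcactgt
Kat2b start 1: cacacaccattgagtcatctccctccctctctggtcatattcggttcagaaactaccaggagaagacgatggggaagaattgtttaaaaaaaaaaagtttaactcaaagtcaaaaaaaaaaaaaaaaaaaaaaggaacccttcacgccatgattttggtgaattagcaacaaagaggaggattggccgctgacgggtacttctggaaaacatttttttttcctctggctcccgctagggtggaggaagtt
Kat2b start 2: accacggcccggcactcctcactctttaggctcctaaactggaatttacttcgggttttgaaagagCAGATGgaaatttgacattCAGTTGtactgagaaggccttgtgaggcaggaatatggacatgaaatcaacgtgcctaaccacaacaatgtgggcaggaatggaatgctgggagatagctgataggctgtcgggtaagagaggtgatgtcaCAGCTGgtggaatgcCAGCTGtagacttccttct

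The Smarca2 window held 1 E-box and 28 CpG pairs and that of Smarca4 0 and 25, while the Kat2a window held 1 and 11, and the Kat2b windows 0 and 6 at start 1 and 4 and 5 at start 2. Over the 38 of 43 genes with a promoter in the RefSeq table, an E-box stood in 26 of 50 windows (52%), against 66.2% of all 32841 windows of the same length. CpG pairs were more frequent: 41 of 50 windows (82%) held at least 10, against 37.8% of all windows, with a median of 19.5 against 6. A match is a string of letters in a window and says nothing of binding.

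Both values of the CHD class median were positive, 0.74 for Olig3 and 0.24 for Olig2 against GFP. Chd8, a remodeler that opposes beta-catenin targets and is known from autism genetics (chr14:52198151-52257780, minus strand), had 45.7, 47.6 and 47.2 CPM in the Olig3 libraries and 43.04, 43.4 and 36.8 CPM in the Olig2 libraries, against 16.4, 33.6 and 13.9 CPM in the GFP libraries. On the scaled levels the GFP libraries were all below the 6 factor libraries, and GFP library 2 was the closest to them. Without scaling factors the groups overlapped. GFP library 2 then had 38.1 CPM, above Olig3 library 2 with 35.7 CPM and Olig2 libraries 2 and 3 with 33.7 and 30.4 CPM. The means were 46.8 ± 1.01 CPM in Olig3 libraries and 41.1 ± 3.73 CPM in Olig2 libraries, against 21.3 ± 10.7 CPM in GFP libraries (SD, n = 3 each), so that the Olig3 mean was 2.20-fold and the Olig2 mean 1.93-fold the GFP mean. The log2 changes were 1.13 (SE 0.38, edgeR adjusted p = 0.282) for Olig3 and 0.95 (SE 0.38, edgeR adjusted p = 0.930) for Olig2 against GFP. Of the exons of Chd8, 5.77% overlap with Gm26590 on the opposite strand, which had 13 to 58 counts. Chd4, the ATPase of the NuRD corepressor, had 113, 96.9 and 93.2 CPM in the Olig3 libraries and 115, 58.9 and 52.2 CPM in the Olig2 libraries, against 64.5, 54.5 and 61.6 CPM in the GFP libraries. Every Olig3 library was above every GFP library, 1 Olig2 library was as high, and the log2 change was 0.75 (SE 0.30, edgeR adjusted p = 0.358) for Olig3 against GFP. Chd7, a remodeler of enhancers, had 200.1, 177 and 213 CPM in the Olig3 libraries and 144, 174 and 175 CPM in the Olig2 libraries, against 147, 149 and 258 CPM in the GFP libraries. Olig3 libraries were all above Olig2 libraries, and the log2 change of Chd7 was 0.26 (SE 0.25, edgeR adjusted p = 0.934) for Olig3 against Olig2.

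**Figure D4:**
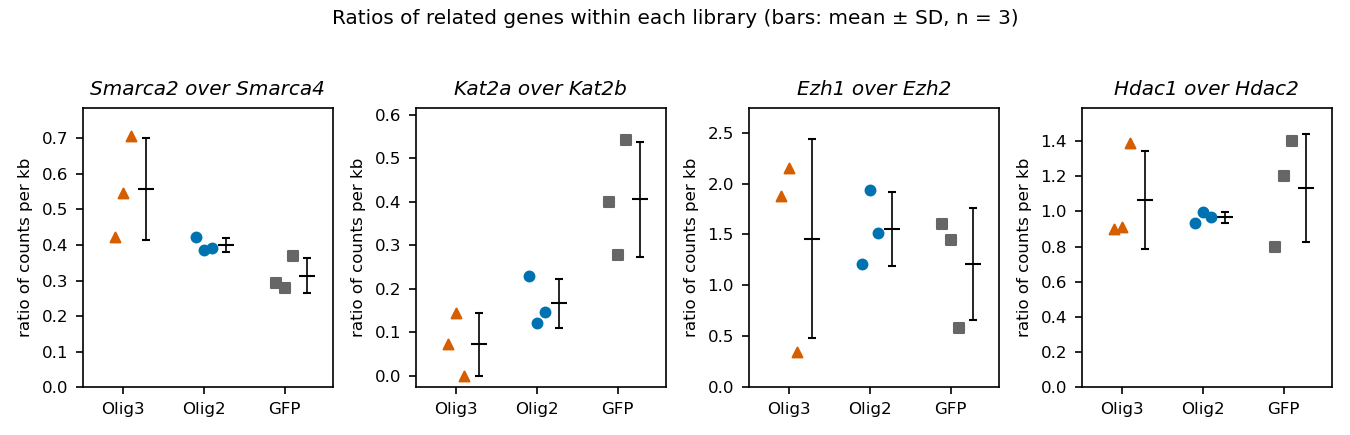
Ratio of counts per kilobase between related genes in each library, for 4 pairs, grouped as Olig3, Olig2 and GFP with the mean and SD of 3 libraries beside the points. Smarca2 over Smarca4 had means of 0.557, 0.400 and 0.314 in Olig3, Olig2 and GFP libraries, and Kat2a over Kat2b had 0.0723, 0.166 and 0.406.

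The other pairs showed where ratios did not separate both factors from GFP. Dnmt3a over Dnmt3b was 31.4, 5.07 and 1.65 in the Olig3 libraries and 4.44, 8.05 and 4.75 in the Olig2 libraries, against 2.24, 2.94 and 2.77 in the GFP libraries. All Olig2 libraries were above all GFP libraries, and the Olig3 libraries spread from below to far above both. Hdac1 over Hdac2 was 0.899, 0.912 and 1.39 in the Olig3 libraries and 0.933, 0.993 and 0.968 in the Olig2 libraries, against 0.798, 1.20 and 1.40 in the GFP libraries, with overlapping groups. Hdac4 over Hdac5 was 0.0865, 0.252 and 0.0182 in the Olig3 libraries and 0.0936, 0.212 and 0.181 in the Olig2 libraries, against 0.218, 0.0883 and 0.326 in the GFP libraries, again with overlap. Kmt2d over Kmt2a, a ratio chosen after its values were seen, was 0.197, 0.322 and 0.374 in the Olig3 libraries and 0.358, 0.608 and 0.402 in the Olig2 libraries, against 0.231, 0.180 and 0.226 in the GFP libraries, with every Olig2 library above every GFP library and Olig3 library 1 within the GFP range.

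Beyond the 43 genes, a list of 133 other chromatin regulators gave 129 that were tested, and none passed an adjusted p of 0.05 in any of the 4 comparisons. At an unadjusted p below 0.05 in edgeR, the list had 19 genes for Olig3 against GFP (13 higher, 6 lower), 5 for Olig2 against GFP (3 higher, 2 lower), 9 for Olig3 against Olig2 (6 higher, 3 lower) and 13 for both factors against GFP (8 higher, 5 lower). These are 14.7, 3.88, 6.98 and 10.1% of the list, beside 12.1, 4.68, 5.12 and 9.37% of all genes. For the 42 genes the same shares, both directions together, were 19.0, 4.76, 7.14 and 16.7%. Counted as higher only, the shares of the list were 10.1, 2.33, 4.65 and 6.20%, beside 5.76, 2.61, 2.07 and 4.23% of all genes. Counted as lower only, they were 4.65, 1.55, 2.33 and 3.88%, beside 6.37, 2.08, 3.05 and 5.14%. The median log2 changes of the list were -0.01, -0.03 and 0.06 in the first 3 comparisons. Nearest to the threshold was Gadd45b, a stress-induced gene linked to DNA demethylation, with 18.0 ± 10.3 CPM in Olig3 libraries and 46.1 ± 6.81 CPM in Olig2 libraries, against 84.6 ± 18.8 CPM in GFP libraries. Its log2 change was -2.24 (SE 0.46, edgeR adjusted p = 0.0840) for Olig3 against GFP. Gadd45g, its relative, had 48.0 ± 41.2 CPM in Olig3 libraries and 44.3 ± 5.00 CPM in Olig2 libraries, against 109 ± 47.4 CPM in GFP libraries, with a log2 change of -1.30 (SE 0.53, edgeR adjusted p = 0.943) for Olig2 against GFP. Kdm3b, a demethylase of H3 lysine 9, had 132 ± 20.3 CPM in Olig3 libraries and 109.7 ± 13.2 CPM in Olig2 libraries, against 74.7 ± 5.42 CPM in GFP libraries, with log2 changes of 0.82 (SE 0.22, edgeR adjusted p = 0.177) for Olig3 and 0.55 (SE 0.22, edgeR adjusted p = 0.902) for Olig2 against GFP. Dpf3, a BAF subunit of neurons, had 84.1 ± 13.9 CPM in Olig3 libraries and 68.1 ± 11.4 CPM in Olig2 libraries, against 38.4 ± 17.9 CPM in GFP libraries, with a log2 change of 0.83 (SE 0.34, edgeR adjusted p = 0.943) for Olig2 against GFP. Daxx, a chaperone of histone H3.3, had 28.2 ± 6.84 CPM in Olig3 libraries and 18.5 ± 3.90 CPM in Olig2 libraries, against 41.8 ± 8.45 CPM in GFP libraries, with a log2 change of -1.17 (SE 0.38, edgeR adjusted p = 0.712) for Olig2 against GFP. The ISWI partner Baz1b had 159.7 ± 54.6 CPM in Olig3 libraries and 98.2 ± 12.7 CPM in Olig2 libraries, against 78.5 ± 20.9 CPM in GFP libraries, with a log2 change of 1.02 (SE 0.29, edgeR adjusted p = 0.204) for Olig3 against GFP. Its relative Baz1a was nearly without counts in Olig3 libraries, with 0.147 ± 0.254 CPM in Olig3 libraries and 10.5 ± 1.39 CPM in Olig2 libraries, against 6.10 ± 2.49 CPM in GFP libraries. Ep400, the ATPase of the TIP60 complex, had 127 ± 62.8 CPM in Olig3 libraries and 59.1 ± 9.32 CPM in Olig2 libraries, against 59.5 ± 14.3 CPM in GFP libraries, with a log2 change of 1.11 (SE 0.35, edgeR adjusted p = 0.865) for Olig3 against Olig2. Jmjd1c, a relative of Kdm3b, had 189.5 ± 49.1 CPM in Olig3 libraries and 107 ± 18.1 CPM in Olig2 libraries, against 120.1 ± 40.9 CPM in GFP libraries, with a log2 change of 0.82 (SE 0.29, edgeR adjusted p = 0.918) for Olig3 against Olig2.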

How the data were processed

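Poly-A RNA of picked cells was amplified with the SMART-Seq HT kit over 20 PCR cycles, per the labels' protocols. The authors deposited 1 table of counts per gene for all 9 libraries, as whole numbers and not normalized. The submitters' processing notes name FastQC, HISAT2, HTSeq and the build mm10. Tool versions and strandedness are not given in the sources used, so that reads of overlapping genes on opposite strands cannot be told apart.

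Tests used edgeR 4.0.16 under R 4.3.3 (quasi-likelihood F test, TMM factors, filterByExpr, 1 model over 9 libraries, 6 residual degrees of freedom, common dispersion 0.532), with Benjamini-Hochberg adjustment over 15609 genes. The SE of a log2 change is its size divided by the square root of F. Medians of lists use differences between group means of log2 CPM (prior count 2). Exon lengths and coordinates (1-based) are from GENCODE M21 on GRCm38, the assembly of mm10, and promoters from RefSeq GRCm38.p6. Within groups, every pair of libraries differed by more than counting noise (chi-square over degrees of freedom at least 29.5). A count of 3, taken as the detection floor, is 0.430 to 0.560 CPM; floors and intervals cover counting error only.

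The genes and lists were chosen with earlier results of these data known. All 43 genes are accounted for; those with the 6 smallest p in a comparison, or with separated libraries in both comparisons against GFP, are given in full. Library values of other genes were chosen for print after their values were seen. Of the other regulators, those with the 2 smallest p in each direction are given for each comparison. Alternatives were RLE, upper-quartile and TMMwsp scaling, DESeq2 1.42.0, limma-voom (limma 3.58.1) with and without sample weights, robust estimation, other filters, fits of single pairs, mitochondrial and ribosomal genes left out of scaling, a replicate block, an adjusted p of 0.1, a prior count of 0.5 and leaving out each library. Library totals without scaling factors, and fits without the 3 libraries richest in Malat1 or the 2 with the fewest detected genes, were chosen after seeing the data.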

Additional observations from a re-analysis of the deposited data

How the results depend on the processing

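Under the alternatives run, the number of genes past the adjusted threshold was 0 in 98 of 99 values. The exception was Olig3 against GFP, with 0 to 1 over the fits that leave out a library: Hdac8 passed without Olig3 replicate 2, in a fit that called 2.98% of all genes. With the replicate number as a block it was 0 in each comparison. The labels state no pairing of libraries. Correlations of deviations from group means were -0.0634 to 0.113 between same-numbered libraries of different groups and -0.115 to 0.0747 between differently numbered ones. With 3 libraries per group, these values cannot settle whether libraries were paired. Leaving out 1 library gave median log2 changes of 0.0054 to 0.1424 for Olig2 against GFP (lowest without Olig2 replicate 2) and of 0.0351 to 0.2183 for both factors against GFP (highest without GFP replicate 3). Without the 2 libraries with the fewest detected genes that last median was 0.202. With library totals and no scaling factors the medians were 0.0275 for Olig3 against GFP, -0.2637 for Olig2 against GFP, 0.2855 for Olig3 against Olig2 and -0.2271 for both factors against GFP. That setting also turned the sign of Kdm5b (-0.0105) and Smarca2 (-0.0765) for Olig2 against GFP, while leaving out the 2 libraries with the fewest detected genes turned Hdac5 for Olig3 against Olig2 (-0.1528). That setting leaves 1 Olig3 library, and leaving out the 3 richest in Malat1 leaves 1 Olig2 library, so that the lone library is assumed to vary like the other groups. Of the gene values under alternatives, 638 had the same direction and side of the threshold, 1 (Hdac8) newly passed and 3 turned sign. They cover only 27 pairs of a gene and a comparison, most of them chosen for a small p in these same data. None of the 27 passed the threshold in the main fit. These counts therefore do not describe how stable the whole list is. Its median for Olig2 against GFP went from 0.1133 to -0.2637 with library totals, while that of all genes went from 0.0568 to -0.3083. The causes of these shifts were not tested. No fit of single pairs exists for both factors together.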
